A study of Mus musculus with 5 samples.

Results

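Interferon-inducible GTPases are enzymes that cells make in quantity when they sense interferon. The 8 described here are the guanylate-binding protein genes Gbp2, Gbp3, Gbp4, Gbp5 and Gbp7 and the immunity-related GTPase genes Irgm1, Igtp and Iigp1. They were chosen by name, as rows of a single-cell RNA table of the mouse aortic arch, and all 8 were found among its 16498 genes. The arches came from mice on the Apoe-/- background, which is prone to atherosclerosis, kept on normal chow for 28 weeks. One group, of 2 libraries, was Apoe-/-, with Oasl1 wild type by its label. The other, of 3 libraries, carried the label Oasl1-/-Apoe-/-: both Apoe and Oasl1 were targeted, the Oasl1 allele lacking its promoter and exon 2, on a C57BL/6 background. Each library was made from pooled mice, with 6 mice given as the number pooled, after a sort for live cells, and the labels do not say that the libraries of a group came from separate pools, so the p-values measure the spread between libraries, which may be technical.

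The libraries held 3212 to 4338 cells and 16959976 to 19813039 unique molecular identifiers (UMIs, counts of distinct RNA molecules), with a median of 4495 to 5186.5 UMIs per cell. Between 999 and 3880 UMIs per library belonged to the 8 genes. Oasl1 itself had 27 and 16 UMIs in the Apoe-/- libraries against 299, 257 and 315 in those labelled Oasl1-/-Apoe-/-, the opposite of what the label would give. Reads from the 3′ end do not cover the stretch that this allele lacks, and cannot show directly whether it is missing. The Oasl1 counts nevertheless ran against the label. Whether the libraries carry the deletion, and whether the labels are right, was not tested. The second group is therefore called "labelled" throughout. Any pair of libraries shared 6 to 22 cell barcodes.

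Guanylate-binding proteins (GBPs) and immunity-related GTPases (IRGs) are best known for cell-autonomous defence. Interferon gamma is their classical inducer, in part through IRF1, and type I interferons induce many of them through STAT2 and IRF9. GBPs coat pathogen vacuoles and bacteria and help inflammasomes to fire, and effector IRGs such as Iigp1 break vacuole membranes, while the regulatory IRGs Irgm1 and Igtp sit on the cell's own membranes and keep effectors off them. The proteins of autophagy that conjugate Atg8 guide both families to their targets.

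The promoters of these genes are shown as background. RefSeq promoter entries (GRCm38.p6, 250 bases before to 50 bases after the start of transcription) were matched for 6 of the 8 genes. Gbp4 and Iigp1 had no entry. The interferon-stimulated response element (ISRE), which interferon regulatory factors bind, was searched as GAAANNGAAA or, on the other strand, TTTCNNTTTC. The 6 genes had 7 entries, 2 of them for Gbp3. The element was found in 6 of the 7, against 3.44% of the 32851 promoters in the same table, and the entry without a match was the second of Gbp3 (chr3:142560106-142560405). The match began 24 to 59 bases before the start site in 5 of the genes and 165 bases before it in Gbp5. Each sequence is on the strand of its gene, 5′ to 3′, with ISRE matches in capitals.
Gbp2 (chr3:142620579-142620638, + strand): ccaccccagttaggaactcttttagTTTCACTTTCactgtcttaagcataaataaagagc
Gbp3 (chr3:142559974-142560039, + strand): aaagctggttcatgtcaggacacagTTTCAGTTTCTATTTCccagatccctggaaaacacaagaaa
Gbp5 (chr3:142496744-142496803, + strand): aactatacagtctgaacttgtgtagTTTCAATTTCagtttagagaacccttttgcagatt
Gbp7 (chr3:142530258-142530317, + strand): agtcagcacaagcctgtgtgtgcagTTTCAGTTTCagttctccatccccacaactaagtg
Irgm1 (chr11:48871410-48871475, - strand): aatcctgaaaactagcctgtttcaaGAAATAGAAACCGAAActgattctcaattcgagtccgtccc
Igtp (chr11:58199497-58199556, + strand): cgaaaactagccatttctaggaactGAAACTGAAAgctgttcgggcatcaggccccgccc
In Gbp3 and Irgm1 a pair of matches overlapped, so that the capitals run on. The gamma-activated site (GAS), an element of interferon gamma response searched as TTCNNNGAA, which reads the same on both strands, was found in 3 of the 7 entries (Gbp5, Gbp7 and Igtp) against 8.3% of all promoters, and none of these overlapped an ISRE match. A match is a run of letters and not a measured binding site. The genes were chosen by name as interferon-inducible, so these shares are background and not a result of the comparison between the groups.

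By GENCODE annotation of GRCm38 (mm10), Gbp5, Gbp7, Gbp3 and Gbp2 lay in that order on chromosome 3, from 142493978 to 142638008, all on the + strand. Irgm1 and Igtp were on chromosome 11, at 48861968-48871683 (- strand) and 58199556-58207591 (+ strand). Gbp4 was on chromosome 5 at 105115767-105139586, 9.78 Mb from Oasl1. Gbp4 overlapped Gbp8 and Gbp9, Igtp overlapped Irgm2 and Gbp7 overlapped Gm43802, each on the same strand, and the GBPs are similar to one another in sequence, so the division of reads among these genes is uncertain.

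The first comparison asked whether the level of the GTPase genes in the arch as a whole differed between the groups. Levels are mean UMIs per 10000 UMIs of a cell (CP10K) over the cells of a library. All 8 genes had higher levels in each labelled library than in both Apoe-/- libraries, as 28.4% of all genes tested did. By limma, 7 of the 7 genes that passed the filter on low values (a mean of 0.05 CP10K) were higher in the labelled libraries at an adjusted p under 0.05, as 20.5% of the 9836 genes tested were, while 20.6% were lower. Gbp4 and Irgm1, with Apoe-/- means of 0.0387 and 0.034 CP10K, passed the filter only through the labelled libraries. A gene that passed in this way could be tested only because it was high in one group, so here and below the counts over the tested genes are a description.

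Gbp2, which coats pathogen vacuoles and acts upstream of inflammasomes, was at 0.192 and 0.219 CP10K in the Apoe-/- libraries and at 0.59, 0.563 and 0.593 in the labelled ones. The means were 0.205 ± 0.0191 (SD, n = 2) and 0.582 ± 0.0167 (SD, n = 3), and the log2 difference was 1.31 (SE 0.07, limma adjusted p = 2.1e-07). Iigp1, an effector IRG that disrupts vacuole membranes, was at 0.0841 and 0.0975 CP10K against 0.377, 0.344 and 0.397, a log2 difference of 1.58 (SE 0.08, limma adjusted p = 1.8e-07). Every labelled library had over 3 times the Iigp1 level of either Apoe-/- library.

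The regulatory IRGs moved with the effector. Irgm1 was at 0.0409 and 0.0271 CP10K against 0.171, 0.15 and 0.194, with a log2 difference of 1.40 (SE 0.10, limma adjusted p = 2.5e-06). Igtp, also known as Irgm3, was at 0.0816 and 0.0675 CP10K against 0.317, 0.314 and 0.281, with a log2 difference of 1.51 (SE 0.08, limma adjusted p = 2.8e-07). Neither gene's libraries overlapped between the groups.

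Among the other GBPs, Gbp3 was at 0.0804 and 0.0508 CP10K against 0.313, 0.297 and 0.243. Gbp4 was at 0.0448 and 0.0327 CP10K against 0.125, 0.146 and 0.125. Gbp7 was at 0.083 and 0.0885 CP10K against 0.195, 0.21 and 0.156, and its log2 difference of 0.80 (SE 0.10, limma adjusted p = 9.8e-05) was below those of the other 6 on this scale. The log2 differences of Gbp3 and Gbp4 were 1.54 and 1.04 (limma adjusted p = 4.1e-06 and 7.9e-06). Gbp5, a GBP known for its part in NLRP3 inflammasome assembly, stayed below the filter and was not tested. Its level was 0.00831 and 0.00888 CP10K, on 12 and 17 UMIs, against 0.0276, 0.0286 and 0.0377, on 46, 50 and 66 UMIs.

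In a whole arch, more cells of a type and more RNA per cell cannot be told apart, and the makeup of the arches differed. Cells were assigned to types by marker genes, which left 7.18% to 12.2% of the cells of a library unassigned. Smooth muscle accounted for 69.1% ± 0.879 (SD, n = 2) of the Apoe-/- cells and for 49.5% ± 0.0772 (SD, n = 3) of the labelled ones. Macrophages were 9.41% ± 0.562 and 21.7% ± 0.781, natural killer and T (NK/T) cells 1.99% and 4.75%, fibroblasts 1.25% and 3.06%, and endothelial cells 8.53% and 6.46%. With every library reweighted to the same shares of the types, 7 of 7 genes were still higher (limma adjusted p under 0.05), as 8.18% of all genes tested were, with log2 differences from 0.74 (Gbp7) to 1.63 (Iigp1).

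The molecules of the family also lay in other cells. Of the UMIs of all 8 genes, smooth muscle cells held 45% ± 0.104 in Apoe-/- libraries (SD, n = 2) and 22.8% ± 0.746 in labelled ones (SD, n = 3). Macrophages held 10.1% ± 2.3 and 30.5% ± 3.35, and endothelial cells 28.4% ± 0.94 and 17.7% ± 4.76. The shift was widest for Gbp4: endothelial cells held 75% and 91.4% of its UMIs in the Apoe-/- libraries and 31.8%, 39.2% and 33.1% in the labelled ones, where macrophages held 28.6%, 25.4% and 31.5%. Smooth muscle held 62.8% and 57.8% of the Iigp1 UMIs in Apoe-/- libraries, where it was 68.5% and 69.7% of the cells. In the labelled libraries it held 35.8%, 37% and 30.7% of them. The Apoe-/- mean level of Iigp1 was 0.0676 CP10K in smooth muscle and 0.376 CP10K in endothelial cells.

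**Figure D1:**
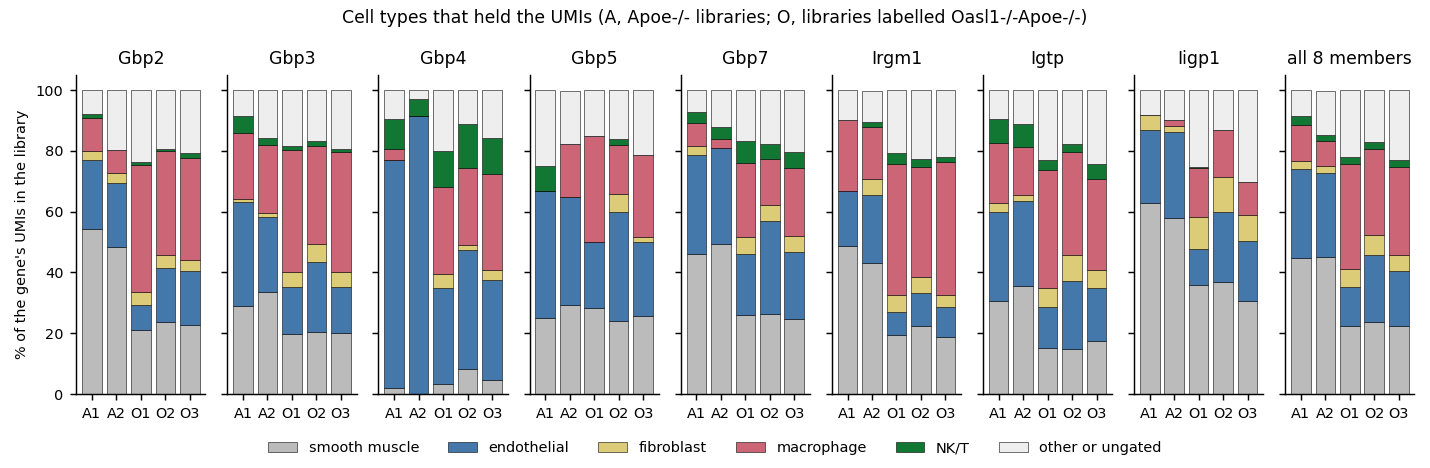
Stacked bars give, for each GTPase gene and for all 8 together, the percentage of its UMIs in a library (A1 and A2, Apoe-/-; O1 to O3, labelled Oasl1-/-Apoe-/-) that lay in each gated cell type. The macrophage part of the bar for all 8 genes grew from 11.8% and 8.51% to 34.3%, 28.1% and 29.1%, and endothelial cells held 75% and 91.4% of the Gbp4 bar in the Apoe-/- libraries.

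Within endothelial cells, the lining of the vessel, all 8 genes passed the filter and 8 of 8 were higher in the labelled libraries (limma adjusted p under 0.05), against 1.97% of the 9430 genes tested. The groups' libraries overlapped for none of the 8, as for 13% of all genes in this direction. Iigp1 was at 0.351 and 0.401 CP10K against 0.978, 1.56 and 1.43, a log2 difference of 1.67 (SE 0.18, limma adjusted p = 8.2e-13). Igtp was at 0.319 and 0.25 CP10K against 0.966, 1.21 and 0.788, a log2 difference of 1.62 (SE 0.20, limma adjusted p = 1.5e-10). Both IRGs were thus more than doubled in every labelled library relative to either Apoe-/- library.

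Gbp3 stood at 0.402 and 0.191 CP10K against 1.04, 1.22 and 0.63 in endothelial cells, a log2 difference of 1.57 (SE 0.21, limma adjusted p = 4.3e-09). Gbp2 stood at 0.58 and 0.716 CP10K against 0.984, 1.87 and 1.63, a log2 difference of 1.10 (SE 0.17, limma adjusted p = 4e-07). For Gbp2 the first labelled library was nearer to the Apoe-/- libraries than to the other labelled ones. Gbp4 was at 0.384 and 0.332 CP10K against 0.658, 0.828 and 0.653, and Gbp7 at 0.375 and 0.381 against 0.69, 1.07 and 0.662, with log2 differences of 0.90 and 0.97 (limma adjusted p = 0.0015 and 0.0003). Irgm1 was at 0.12 and 0.0929 CP10K against 0.272, 0.24 and 0.361, a log2 difference of 1.11 (limma adjusted p = 0.0087).

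Endothelial cells were the gated type in which Gbp5 could be tested, and it passed the filter there only through the labelled libraries. Its level was 0.037 and 0.0459 CP10K, on 5 and 6 UMIs, against 0.174, 0.17 and 0.176, on 10, 18 and 16 UMIs, a log2 difference of 1.29 (SE 0.33, limma adjusted p = 0.0088). Summed over cells, Gbp5 had 0.0437 and 0.0502 UMIs per 10000 in the Apoe-/- libraries and 0.111, 0.187 and 0.178 in the labelled ones. The labelled libraries thus lay further apart by that measure, and the counts are small. The endothelial calls of Gbp4, Gbp5 and Irgm1 were lost without Apoe-/- replicate 2 and with every cell thinned to 1000 UMIs. The thinned log2 differences were 0.28 for Gbp4 and 0.59 for Gbp5. Gbp5 and Irgm1 were also lost without Apoe-/- replicate 1, and Irgm1 without labelled replicate 3. Gated endothelial cells had a median of 2797 UMIs in the Apoe-/- and 3467 in the labelled libraries.

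Endothelial cells were not one population. Clusters made without interferon-response genes placed 81.8% and 86.6% of them in a cluster led by Adh7, Klk10 and Gkn3 in Apoe-/- libraries and 70%, 72.1% and 69.6% in labelled ones. A smaller cluster led by Emcn, Plvap and Selp, genes of permeable and venous-type endothelium, held 17.9% and 12.3% against 27.4%, 27.5% and 29.8%. In the smaller cluster Iigp1 was at 0.42 and 0.0819 CP10K against 3.06, 2.33 and 2.84, and in the larger cluster at 0.327 and 0.436 against 0.485, 1.0 and 0.869. Igtp was at 0.31 and 0.164 CP10K against 1.58, 2.21 and 1.17 in the smaller cluster and at 0.282 and 0.267 against 0.633, 0.747 and 0.771 in the larger. In labelled libraries the IRGs were thus higher in the smaller cluster in each of the 3 libraries, while in Apoe-/- libraries the clusters were not in a fixed order. These values are a description, and the difference between the clusters was not tested. In Gbp4 the clusters were close in the labelled libraries, at 0.463, 0.909 and 0.587 CP10K in the smaller and 0.636, 0.68 and 0.547 in the larger. In the larger cluster the groups overlapped for Gbp2, at 0.543 and 0.692 CP10K against 0.665, 1.05 and 1.03. They also overlapped there for Irgm1, at 0.117 and 0.101 CP10K against 0.221, 0.115 and 0.283, and for no other member. In the smaller cluster they overlapped for no member. The share of all genes without overlap was not counted for these clusters.

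**Figure D2:**
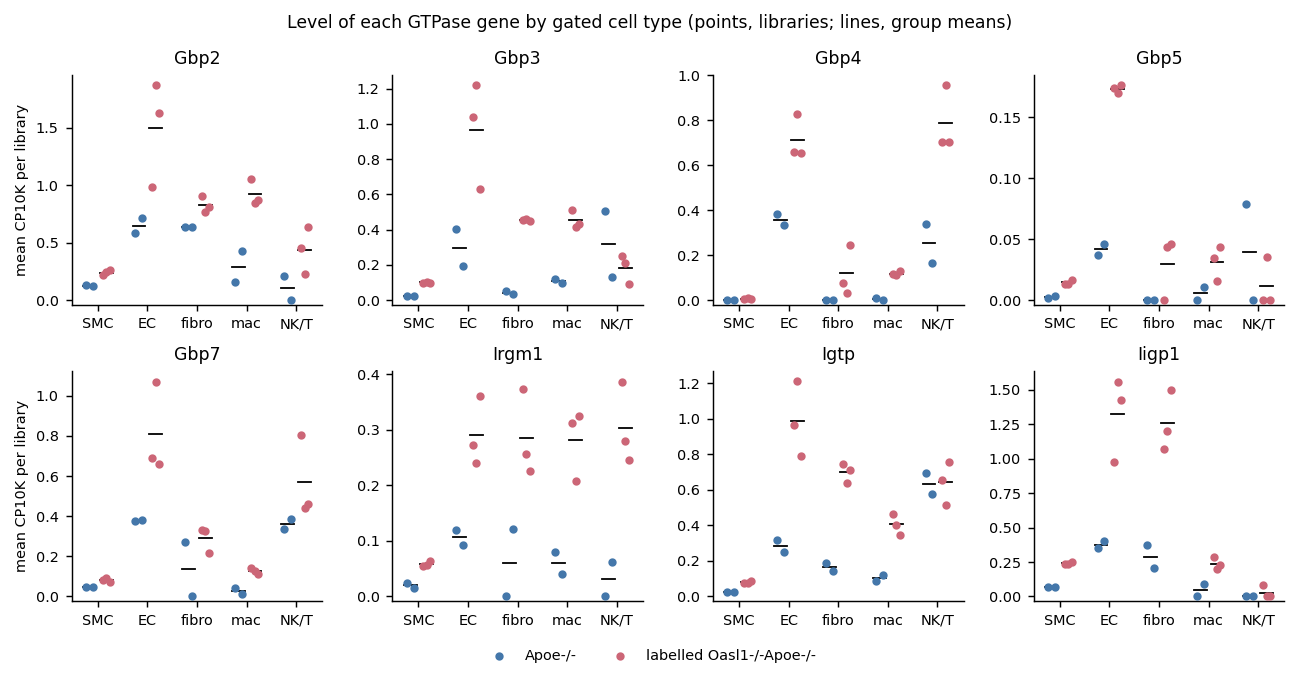
Points give the mean CP10K of each GTPase gene in each library, with lines at the group means, by gated cell type (SMC, smooth muscle; EC, endothelial; fibro, fibroblast; mac, macrophage; NK/T, natural killer and T cells), for Apoe-/- libraries in blue and labelled Oasl1-/-Apoe-/- libraries in red, each gene on an axis of its own. Endothelial points of the labelled libraries lie above both Apoe-/- points for all 8 genes, while for Gbp3, Gbp5, Igtp and Iigp1 the NK/T points of the groups overlap.

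Within macrophages, the phagocytes that fill the plaque, 7 of 7 genes tested were higher in the labelled libraries (limma adjusted p under 0.05), against 9.54% of the 7900 genes tested, and 6.51% of all genes were lower. Gbp4, Gbp7 and Iigp1, with Apoe-/- means of 0.00405, 0.0267 and 0.0441 CP10K, passed the filter only through the labelled libraries, so that the count over the tested genes is a description. The groups' libraries did not overlap for any of the 8 genes, as for 24.9% of all genes in this direction. The log2 differences ranged from 1.24 to 1.78. Gbp3 was at 0.119 and 0.0951 CP10K against 0.512, 0.416 and 0.431, a log2 difference of 1.68 (SE 0.15, limma adjusted p = 6.8e-07). Irgm1 was at 0.0795 and 0.0399 CP10K against 0.313, 0.208 and 0.325, a log2 difference of 1.60 (SE 0.21, limma adjusted p = 3.4e-05). Igtp was at 0.0855 and 0.12 CP10K against 0.466, 0.403 and 0.346, a log2 difference of 1.58 (SE 0.17, limma adjusted p = 3.8e-06).

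Several macrophage levels were near 0 in the Apoe-/- libraries. Iigp1 had 0 and 3 UMIs there against 114, 96 and 89 in the labelled libraries, or 0 and 0.0882 CP10K against 0.285, 0.2 and 0.229, and its log2 difference of 1.78 (SE 0.30, limma adjusted p = 0.00044) depends on the pseudocount of 0.05 CP10K. Gbp4 had 2 and 0 UMIs against 44, 46 and 56, with a log2 difference of 1.63 (SE 0.18, limma adjusted p = 8.2e-06) that depends on it in the same way. Both genes were all but undetected in Apoe-/- macrophages, and both were found in each labelled library. Gbp7 was at 0.042 and 0.0114 CP10K against 0.144, 0.125 and 0.113, a log2 difference of 1.24 (SE 0.20, limma adjusted p = 0.00038), and Gbp5, below the filter, had 0 and 3 UMIs against 16, 8 and 18.

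Gbp2 in macrophages was at 0.159 and 0.423 CP10K against 1.05, 0.843 and 0.871, a log2 difference of 1.62 (SE 0.23, limma adjusted p = 7.6e-05). The 0.423 of Apoe-/- replicate 2 rested on 28 UMIs, some of them in shallow cells: summed over cells, Gbp2 had 0.156 and 0.126 UMIs per 10000 in the Apoe-/- libraries and 1.05, 0.863 and 0.899 in the labelled ones. Without Apoe-/- replicate 1 the log2 difference of Gbp2 was 1.03 and that of Iigp1 was 1.05, both past the threshold by limma, and 7 of 7 genes were past the threshold without any 1 of the libraries.

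The makeup of the gated macrophages also differed. A cluster led by Trem2, Lpl, Gpnmb and Fabp5, genes of lipid-laden macrophages, held 53.5% and 56.3% of them in Apoe-/- libraries and 43.3%, 44.2% and 43.5% in labelled ones. A cluster led by Ccl12, Cd72, C1qa and Adgre1 held 15.2% and 15.9% against 32.8%, 36% and 37.1%. In the cluster led by Trem2, Gbp2 was at 0.122 and 0.0432 CP10K against 0.921, 0.808 and 0.581, and in the cluster led by Ccl12 at 0.41 and 0.279 against 1.35, 0.983 and 1.35. Igtp was at 0.0815 and 0.0524 CP10K against 0.471, 0.363 and 0.288 in the cluster led by Trem2, and at 0.197 and 0.24 against 0.662, 0.593 and 0.385 in the cluster led by Ccl12. Within each of these clusters the groups did not overlap for either gene. The share of all genes without overlap was not counted for the clusters, and was 24.9% in this direction over gated macrophages. In every library both genes were higher in the cluster led by Ccl12. Other members had no such fixed order: Irgm1 in the cluster led by Ccl12 was 0.454 times its level in the other in Apoe-/- replicate 2 and 0.636 times in labelled replicate 3, and Gbp7 was lower there in Apoe-/- replicate 2 and labelled replicate 2. A further macrophage cluster, led by Stmn1, Birc5 and Rrm2, held 3.75% and 2.81% against 8.08%, 5.83% and 6.23%. It had 20 and 14 cells in the Apoe-/- libraries, and in it the groups overlapped for both Gbp2 and Igtp. Gbp2 was at 0.223 and 1.64 CP10K against 0.98, 1.09 and 1.06 in this cluster. Igtp was at 0.0888 and 0.716 CP10K against 0.355, 0.218 and 0.301.

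In smooth muscle cells, the contractile cells of the vessel wall, 5 of 5 genes tested were higher in the labelled libraries (limma adjusted p under 0.05), against 6.77% of the 9101 genes tested. Of the 5, Gbp3, Igtp and Gbp7, with Apoe-/- means of 0.0222, 0.0247 and 0.0472 CP10K, passed the filter only through the labelled libraries. The groups did not overlap for any of the 8 genes, as for 23.3% of all genes in this direction. Iigp1 was at 0.0663 and 0.069 CP10K against 0.235, 0.236 and 0.252, a log2 difference of 1.31 (SE 0.08, limma adjusted p = 2.2e-08). Gbp3 was at 0.0243 and 0.0202 CP10K against 0.098, 0.104 and 0.098, a log2 difference of 1.06 (SE 0.09, limma adjusted p = 1.2e-06). Igtp was at 0.0243 and 0.025 CP10K against 0.0765, 0.0744 and 0.0866, a log2 difference of 0.79 (limma adjusted p = 3.7e-05). These 3 genes were at least 3-fold higher by their means.

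Gbp2 rose in smooth muscle from 0.131 and 0.122 CP10K to 0.216, 0.243 and 0.259, a log2 difference of 0.71 (SE 0.09, limma adjusted p = 3.9e-05). Gbp7 was at 0.0452 and 0.0491 CP10K against 0.0835, 0.0905 and 0.0726, a log2 difference of 0.44 (SE 0.10, limma adjusted p = 0.008). Irgm1, Gbp5 and Gbp4 were below the filter, with Irgm1 at 0.0246 and 0.0157 CP10K against 0.0554, 0.056 and 0.0645. In clusters named smooth muscle in place of gated cells, 2 of 4 genes tested were past the threshold, against 376 of all 9000 genes tested. These were Gbp3 and Iigp1, with log2 differences of 0.94 and 0.91 (limma adjusted p = 2.1e-05 and 7e-06). There Gbp2 had a log2 difference of 0.26 (limma adjusted p = 0.15) and Gbp7 one of 0.33 (limma adjusted p = 0.063), and Igtp was below the filter.

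Levels this low can come from RNA released by other cells. Endothelial markers were found in smooth muscle cells at 0.759% to 0.914% of their endothelial level in Apoe-/- libraries and at 0.605% to 1.09% in labelled ones, and macrophage markers at 0.39% to 0.413% and 0.637% to 0.837% of their macrophage level. Gbp4 was within or near the range of the endothelial markers, at 0 to 0.246% and 0.542% to 1.3% of its endothelial level. In labelled libraries it was at 3.11% to 9.81% of its macrophage level, above the share of the macrophage markers. The other 7 genes were at 4.61% to 24% of their endothelial level, above the shares of the endothelial markers. The part of released RNA in any of these values was not tested. In smooth muscle cells the summed level of the 8 macrophage markers was 0.798 to 0.934 CP10K against 1.52 to 2.05, and that of the 8 fibroblast markers 1.95 to 2.56 against 5.31 to 6.55, with none of either list at 0. Their part in the smooth muscle differences was not tested.

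In fibroblasts, the matrix-making cells of the adventitia, 3 of 7 genes tested were higher in the labelled libraries (limma adjusted p under 0.05), against 1.32% of the 9403 genes tested. Libraries did not overlap for 6 of the 8 genes, as for 14.6% of all genes in this direction. Iigp1 was at 0.371 and 0.209 CP10K, on 7 and 3 UMIs, against 1.07, 1.2 and 1.5, on 77, 73 and 68 UMIs, a log2 difference of 1.97 (SE 0.32, limma adjusted p = 0.0011). Igtp was at 0.188 and 0.145 CP10K against 0.746, 0.641 and 0.714, a log2 difference of 1.80 (SE 0.37, limma adjusted p = 0.0092). Gbp3 had 1 UMI in each Apoe-/- library against 25, 28 and 24 in the labelled ones, and its log2 difference of 2.45 (SE 0.47, limma adjusted p = 0.0049) depends on the pseudocount. Gbp3 and Gbp4 passed the filter in fibroblasts only through the labelled libraries.

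Gbp2 stood apart in fibroblasts. Its level in the Apoe-/- libraries, 0.637 and 0.632 CP10K, was already close to that of endothelial cells, and the labelled libraries were at 0.909, 0.763 and 0.807, a log2 difference of 0.35 (interval -0.26 to 0.97, limma adjusted p = 0.68). Irgm1, Gbp7 and Gbp4 had log2 differences of 1.83, 1.42 and 1.54, none of them past the threshold (limma adjusted p = 0.14, 0.36 and 0.36). The Apoe-/- libraries decided these values: Gbp7 went from 0.08 without replicate 2 to 2.75 without replicate 1, and Irgm1 from 0.95 without replicate 1 to 2.72 without replicate 2, the higher value of each being past the threshold by limma. The Apoe-/- libraries gave 52 and 53 fibroblasts, and without any 1 of the labelled libraries 1 gene was past the threshold. The summed level of the 6 monocyte markers in gated fibroblasts was 1.57 to 2.42 CP10K against 4.47 to 7.45, with Chil3 and F10 among those at 0, and its part in the result was not tested.

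In NK/T cells, themselves the main makers of interferon gamma, 1 of 6 genes tested was higher in the labelled libraries (limma adjusted p under 0.05), against 1.08% of the 8028 genes tested. Libraries did not overlap for 4 of the 8, as for 16.3% of all genes in this direction. The gene was Gbp4, at 0.339 and 0.166 CP10K against 0.705, 0.956 and 0.703, a log2 difference of 1.52 (SE 0.37, limma adjusted p = 0.033). The call of Gbp4 was lost without Apoe-/- replicate 2 (log2 difference 1.09, limma adjusted p = 0.16) and without labelled replicate 1, 2 or 3 (limma adjusted p = 0.27, 0.34 and 0.21), and was kept without Apoe-/- replicate 1. Igtp had nearly the same level in both groups, 0.695 and 0.576 CP10K against 0.656, 0.515 and 0.756, a log2 difference of 0.00 (interval -0.67 to 0.68, limma adjusted p = 1). Gbp3 was at 0.505 and 0.133 CP10K against 0.25, 0.213 and 0.0901 (interval of the log2 difference -1.68 to 0.64, limma adjusted p = 0.79).

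Irgm1 had 0 and 1 UMIs in Apoe-/- NK/T cells and 11, 7 and 7 in labelled ones, with a log2 difference of 2.23 (interval 1.01 to 3.45, limma adjusted p = 0.052). Gbp2 had 4 and 0 UMIs against 13, 7 and 22 (log2 difference 2.01, limma adjusted p = 0.11), with a log2 difference of 0.84 without Apoe-/- replicate 2 and of 3.19 without Apoe-/- replicate 1, past the threshold by limma. Irgm1, which passed the filter only through the labelled libraries, went from 1.65 without Apoe-/- replicate 1 to 2.81 without Apoe-/- replicate 2, the latter past the threshold. The Apoe-/- libraries gave 89 and 78 NK/T cells, and neither gene passed the threshold with all 5 libraries. Iigp1 had 2 UMIs in NK/T cells, both in labelled replicate 1. In NK/T cells the summed level of the 8 macrophage markers was 0.0366 to 0.318 CP10K against 0.816 to 1.35, with Mrc1 and Csf1r at 0, and that of the 8 fibroblast markers was 0 in both Apoe-/- libraries against 0.612 to 1.26, with Pdgfra, Pi16, Clec3b and Dpep1 at 0. Their part in the NK/T differences was not tested.

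**Figure D3:**
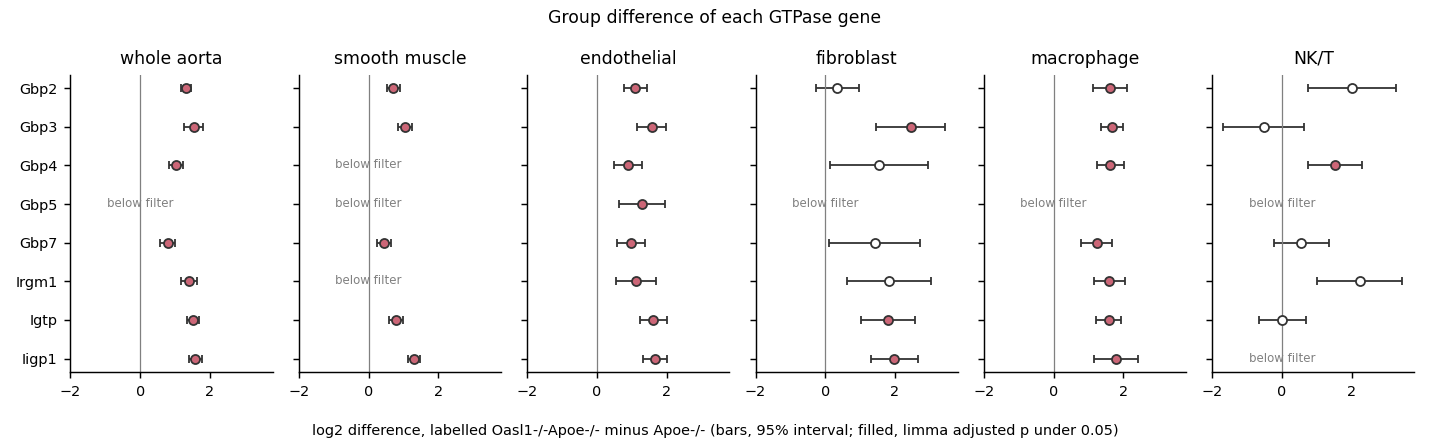
Each panel gives the log2 difference of the 8 genes (labelled Oasl1-/-Apoe-/- minus Apoe-/-, on the log2(CP10K + 0.05) scale) with its 95% interval from limma, filled where the adjusted p was under 0.05. All points of the whole arch, smooth muscle, endothelial and macrophage panels are filled, against 3 points in fibroblasts and 1 in NK/T cells, where the intervals are wide.

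Monocytes and dendritic cells were too few in the gate and were read from clusters. In the monocyte-like cluster, led by Arg1, Chil3 and F10, 1 of 5 genes tested was past the threshold, against 2.07% of all genes tested. This was Irgm1, at 0.0639 and 0.0158 CP10K against 0.221, 0.254 and 0.204, a log2 difference of 1.67 (SE 0.43, limma adjusted p = 0.033). In the dendritic-like cluster, led by Cd209a, Fscn1 and Ccl22, 1 of 7 genes was past it, against 1.02% of all genes tested. This was Igtp, with 1 and 0 UMIs against 16, 7 and 11 (log2 difference 2.09, limma adjusted p = 0.032). Both calls were lost without Apoe-/- replicate 2 and without labelled replicate 1, 2 or 3, where limma adjusted p ranged from 0.07 to 0.29 for Irgm1 and from 0.12 to 0.21 for Igtp. The Apoe-/- means of both genes were below the filter, which they passed through the labelled libraries.

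Whether the group difference itself differed between cell types was tested on the per-library log2 values of one type minus those of another. On this scale, 4 of 5 genes had a larger difference in macrophages than in smooth muscle cells (limma adjusted p under 0.05). Of all 6875 genes tested, 5.25% did. The excess was 0.91 on the log2 scale for Gbp2 (SE 0.26, limma adjusted p = 0.034), 0.79 for Gbp7 (0.22, 0.026), 0.79 for Igtp (0.21, 0.018) and 0.62 for Gbp3 (0.19, 0.042). Iigp1 had an excess of 0.48 with an interval from -0.17 to 1.12 (limma adjusted p = 0.36). Without labelled replicate 1, 0 of the 5 were past the threshold, without labelled replicate 3 there was 1, and without Apoe-/- replicate 1 or labelled replicate 2 there were 2. With a pseudocount of 0.01 CP10K 1 was past it, and the excess of Gbp3 was 0.21. Smooth muscle levels lie near the pseudocount of 0.05 CP10K, which shrinks their log2 differences. By the fold of the group means Gbp3 went the other way, at 4.23 in macrophages and 4.5 in smooth muscle. The folds were 3.95 and 3.21 for Igtp, 3.16 and 1.9 for Gbp2, and 4.78 and 1.74 for Gbp7. Without Apoe-/- replicate 1 the excess of Gbp2 was 0.28 and without Apoe-/- replicate 2 that of Gbp7 was 0.47.

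Between macrophages and endothelial cells 0 of 7 genes differed by limma, against 1.62% of all genes tested, with values from -0.04 (Igtp) to 0.74 (Gbp4, interval 0.10 to 1.37, limma adjusted p = 0.23). Between endothelial and smooth muscle cells 0 of 5 differed, against 0.594% of all genes tested, with values from 0.36 to 0.83. The largest of these, Igtp, had an interval from 0.24 to 1.42 (limma adjusted p = 0.23). The scale mattered here: with a pseudocount of 0.5 CP10K, 5 of 5 genes rose more in endothelial than in smooth muscle cells by limma. So did 67 of all 8246 genes tested. Levels of the members in smooth muscle lie below that pseudocount. On that scale Iigp1 rose less in macrophages than in endothelial cells, by -0.60 (limma adjusted p = 0.0042).

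The order of the levels across the 5 gated types differed between genes. Gbp2, Gbp5, Gbp7, Irgm1 and Iigp1 had their highest mean in endothelial cells in the Apoe-/- libraries, and so did Gbp4. Gbp3 and Igtp had theirs in NK/T cells. For Gbp3 that rested on 7 and 2 UMIs, and its NK/T libraries overlapped those of endothelial cells. In the labelled libraries Gbp3 and Igtp, too, were highest in endothelial cells, while Gbp4 and Irgm1 were highest in NK/T cells, where their libraries overlapped those of endothelial cells. Smooth muscle had the lowest mean for Gbp2, Gbp3, Gbp4, Gbp7, Irgm1 and Igtp in the labelled libraries. There the highest mean was 122 times the lowest for Gbp4, 12.5 times for Igtp, 6.25 times for Gbp2 and 5.19 times for Irgm1. Of the 6 genes with a ratio, Gbp4 thus varied most between types and Irgm1 least. Gbp4 had 5, 15 and 8 UMIs in the smooth muscle cells of the labelled libraries.

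Some neighbours in these orders did not differ beyond their spread. Endothelial and fibroblast libraries overlapped for Iigp1 in both groups, and macrophages and fibroblasts overlapped for Gbp2, Gbp3, Gbp4, Gbp5 and Irgm1 in the labelled libraries. Igtp in the Apoe-/- libraries had no overlapping neighbours. Iigp1 had the same order in both groups, endothelial, fibroblast, smooth muscle, macrophage, NK/T, and Gbp7 kept endothelial and NK/T cells at the top. The rank of macrophages is specific to the gene: Gbp2 was second highest there in the labelled libraries, while Iigp1 in macrophages overlapped smooth muscle.

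Cells that carried RNA of several of the genes were counted next. Among endothelial cells, 43.6% and 46% had a UMI of at least 1 of the 8 genes in the Apoe-/- libraries and 65.9%, 72.5% and 69.1% in the labelled ones. Among macrophages the shares were 17.2% and 14.6% against 46.8%, 41.4% and 46.5%, and among smooth muscle cells 13.7% and 12.4% against 23.3%, 24.2% and 26.4%. The groups did not overlap in any of these types, and the exact two-sided permutation p was 0.1 for each, the smallest that 2 against 3 libraries allow. Cells with at least 3 of the genes were 1% and 0.767% of macrophages in Apoe-/- libraries and 12.9%, 10.8% and 13.4% in the labelled ones, and 4.84% and 3.81% against 18.8%, 23% and 20.4% of endothelial cells.

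Fibroblasts with at least 1 of the genes made up 21.2% and 22.6% against 53.3%, 53.3% and 51.9%, and NK/T cells 28.1% and 17.9% against 40.9%, 34.6% and 35.8%. The share of NK/T cells with at least 3 of the genes overlapped, at 1.12% and 0 against 3.25%, 0.617% and 4.64% (exact permutation p = 0.3). With each cell thinned to 1000 UMIs the shares with at least 1 gene were 18.9% ± 1.27 (SD, n = 2) and 35.2% ± 0.785 (SD, n = 3) in endothelial cells, 4.03% ± 0.117 and 16.2% ± 0.683 in macrophages, and 3% ± 0.283 and 5.96% ± 0.601 in smooth muscle cells, with the groups in the same order as before thinning. For at least 3 genes the thinned shares were 1.74% and 0.562% against 2.3%, 5.94% and 2.69% in endothelial cells. In macrophages they were 0 and 0 against 0.996%, 0.627% and 1.15%. Of the 5818 Apoe-/- smooth muscle cells, 1 had a Gbp4 UMI (0.0172%, Wilson 95% interval 0.00303 to 0.0973, counting error only). In the labelled libraries 0.349% did (0.218 to 0.558), and the median depths were 4820 and 5171 UMIs.

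**Figure D4:**
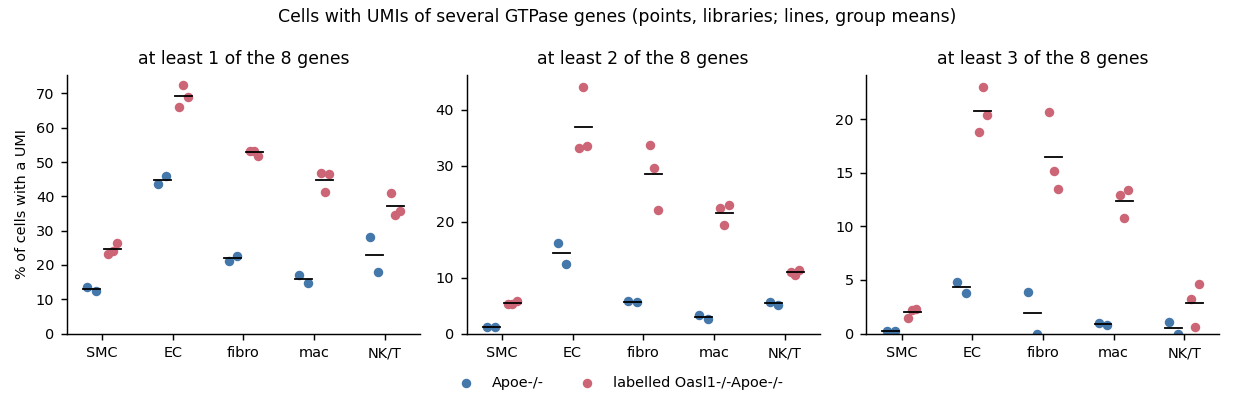
The panels give the percentage of cells of each gated type (SMC, smooth muscle; EC, endothelial; fibro, fibroblast; mac, macrophage) with UMIs of at least 1, 2 or 3 of the 8 genes, a point per library and a line at the group mean. In macrophages the points for at least 2 genes moved from 3.25% and 2.56% to 22.5%, 19.4% and 22.9%.

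The composition of the family within a cell type was compared as the share of each gene in the UMIs of all 8. In smooth muscle cells Gbp2 made up 41.3% and 41.3% of them in the Apoe-/- libraries and 28%, 29.8% and 32.1% in the labelled ones, and Iigp1 19.7% and 20.7% against 30.4%, 28.8% and 28.7%. The place of Gbp2 as the most counted gene was thus shared with Iigp1. In macrophages Gbp2 held 31.4% and 32.9% against 36.5%, 36.1% and 36.5%, Gbp3 fell from 23.1% and 23.5% to 16.1%, 15.9% and 16.5%, and Iigp1 went from 0 and 3.53% to 8.93%, 10% and 7.88%. None of these shares overlapped between the groups, and counts of 3′ tags do not compare the genes by length.

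Likeness of pattern was measured by Pearson's r of log2(mean CP10K + 0.05) over 25 points, the 5 gated types in 5 libraries, which share libraries and depth. Given as a description, the members most alike were Gbp4 and Gbp7 (r = 0.857), Igtp and Gbp7 (0.825) and Gbp3 and Igtp (0.818). Gbp2 and Iigp1 were most like each other (0.742), and Iigp1 and Gbp4 least alike (0.0974). Of 11840 other genes, the 5 with the highest mean r to the 8 members were Tubb5 (0.7), Clec2d (0.682), Ly6e (0.673), Rnf213 (0.671) and B4galt1 (0.668). Tubb5 encodes a tubulin, and Ly6e and Rnf213 are known interferon-induced genes.

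Other interferon-inducible GTPases were taken from 3 lists. Of the other GBPs, 4 of 6 were in the table, and in macrophages 2 were tested, both of which passed the filter only through the labelled libraries. They were Gbp2b, at 0 and 0 CP10K against 0.11, 0.0622 and 0.0794 (limma adjusted p = 9.2e-05), and Gbp8, at 0.0081 and 0.0279 against 0.114, 0.0694 and 0.106 (limma adjusted p = 0.0012). In the other types none of the 1 or 2 tested passed. Of the other IRGs and very large GTPases, 11 of 13 were in the table, and 3 of 5 were higher in the whole arch, 3 of 6 in endothelial cells, 3 of 3 in macrophages, and 0 of 5, 0 of 2 and 0 of 1 in fibroblasts, NK/T and smooth muscle cells. Ifi47, an IRG, was at 0.12 and 0.0819 CP10K against 0.495, 0.43 and 0.452 in macrophages, a log2 difference of 1.76 (SE 0.16, limma adjusted p = 4.9e-07). Gm4951 in endothelial cells was at 0.116 and 0.104 CP10K against 0.35, 0.449 and 0.331, a log2 difference of 1.41 (limma adjusted p = 8.4e-05). Mx1, an antiviral GTPase of the dynamin family, was at 0.025 and 0.0398 CP10K against 0.164, 0.142 and 0.172 in macrophages (log2 difference 1.35, limma adjusted p = 5.5e-05). It passed the filter there only through the labelled libraries, as did Gm4951 in macrophages and both Gm4951 and Irgm2 in the whole arch. The counts of these lists are thus a description. Gbp10, Gbp11, Gm12250, Gvin1 and Mx2 were not analysed here.

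The genes that lead to the GTPases were counted by pathway. The list counts stand against the shares of all tested genes that were higher, 20.5% in the whole arch, 9.54% in macrophages, 6.77% in smooth muscle, 1.97% in endothelial cells, 1.32% in fibroblasts and 1.08% in NK/T cells. They cover genes that passed the filter, some of them through the labelled libraries alone. Of the interferon gamma axis, the cytokine, its receptor and its signalling proteins, 9 of 10 were higher in the whole arch, 4 of 9 in macrophages (median log2 difference 0.29), 3 of 7 in smooth muscle (0.05), 2 of 8 in endothelial cells (0.12), 1 of 9 in NK/T cells (0.40) and 0 of 8 in fibroblasts (0.40). Irf1, a transcription factor that interferon gamma induces, was at 0.39 and 0.407 CP10K against 0.631, 0.716 and 0.591 in macrophages, a log2 difference of 0.63 (SE 0.12, limma adjusted p = 0.0014). Ciita, the switch for antigen presentation genes, was at 0.0867 and 0.0872 CP10K against 0.195, 0.195 and 0.202 there, a log2 difference of 0.85 (SE 0.16, limma adjusted p = 0.0015). In endothelial cells Irf8 was at 0.0118 and 0.019 CP10K against 0.105, 0.141 and 0.0698 (log2 difference 1.22, limma adjusted p = 0.046), a call kept only without labelled replicate 3 when single libraries were left out, and the 2 of 8 in endothelial cells became 0 to 1. None of these 3 genes, named because they passed the threshold, overlapped between the groups. Of all genes, 24.9% in macrophages and 13% in endothelial cells did not overlap in this direction. Ifng, the cytokine itself, was at 0.063 and 0.0463 CP10K against 0.198, 0.202 and 0.131 in the whole arch (log2 difference 1.11, limma adjusted p = 0.00011), where NK/T cells were a larger share of the cells.

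Of the type I interferon axis, 6 of 7 were higher in the whole arch, 4 of 7 in macrophages (median 0.96), 3 of 6 in smooth muscle (0.26), 2 of 7 in NK/T cells (0.54), 1 of 7 in endothelial cells (0.27) and 1 of 7 in fibroblasts (1.0). The gene past the threshold in all 5 gated types was Usp18, which damps signalling at the type I receptor and is itself induced by it. In smooth muscle it was at 0.00869 and 0.00458 CP10K against 0.155, 0.144 and 0.142 (log2 difference 1.80, limma adjusted p = 1.5e-09), and in NK/T cells at 0 and 0 against 0.745, 0.754 and 0.431 (limma adjusted p = 0.00011). Irf7 was at 0.417 and 0.399 CP10K against 1.1, 1.07 and 1.16 in macrophages (log2 difference 1.34, limma adjusted p = 9e-08).

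Known targets of each interferon were counted in the same fits. Of 12 type I targets, 12 of 12 were higher in macrophages (median 1.81), 8 of 10 in endothelial cells (1.28), 5 of 6 in smooth muscle (1.5), 3 of 9 in NK/T cells (1.85), 2 of 11 in fibroblasts (1.51) and 11 of 11 in the whole arch (1.90). Isg15, a ubiquitin-like modifier, was at 0.793 and 0.576 CP10K against 3.15, 3.3 and 3.17 in macrophages (log2 difference 2.16, limma adjusted p = 3.9e-10). Of 12 interferon gamma targets, 9 of 10 were higher in macrophages (median 0.78), 5 of 7 in smooth muscle (0.38), 4 of 11 in endothelial cells (0.50), 3 of 9 in fibroblasts (1.37), 0 of 9 in NK/T cells (0.29) and 9 of 9 in the whole arch (1.20). Cxcl9, a chemokine for T cells, was at 0.229 and 0.149 CP10K against 0.53, 0.569 and 0.783 in macrophages (log2 difference 1.5, limma adjusted p = 9.4e-06). Cxcl10, its relative, was at 0.0603 and 0.0315 CP10K against 0.169, 0.968 and 0.632 in endothelial cells (log2 difference 2.49, limma adjusted p = 2.7e-10), the first labelled library again being the lowest of its group.

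The last lists hold genes that work with the GTPases or downstream of them. Of the inflammasome genes, 8 of 8 were higher in the whole arch (median 0.67), but 1 of 8 in macrophages (0.14), near the share of all genes, 2 of 3 in smooth muscle (0.27) and 0 of 5 in each of endothelial cells (-0.19), fibroblasts (0.68) and NK/T cells (0.23). The macrophage gene was Casp1, the inflammatory caspase, at 0.353 and 0.344 CP10K against 0.661, 0.609 and 0.657 (log2 difference 0.80, limma adjusted p = 0.00012). Of the Atg8 conjugation and ubiquitin adaptor genes, which guide GBPs and IRGs to membranes, 0 of 12 were higher in macrophages and 1 was lower (median -0.17), with 1 higher (4 without Apoe-/- replicate 1) and 2 lower of 12 in the whole arch (0.04) and none past the threshold in the other types (medians 0.05, 0.02, 0.13 and 0.03 in smooth muscle, endothelial, fibroblast and NK/T cells). The gene lower in macrophages was Gabarap, an Atg8 protein, at 13.2 and 12.8 CP10K against 10.8, 10.4 and 10.3 (log2 difference -0.31, SE 0.06, limma adjusted p = 0.00086).

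**Figure D5:**
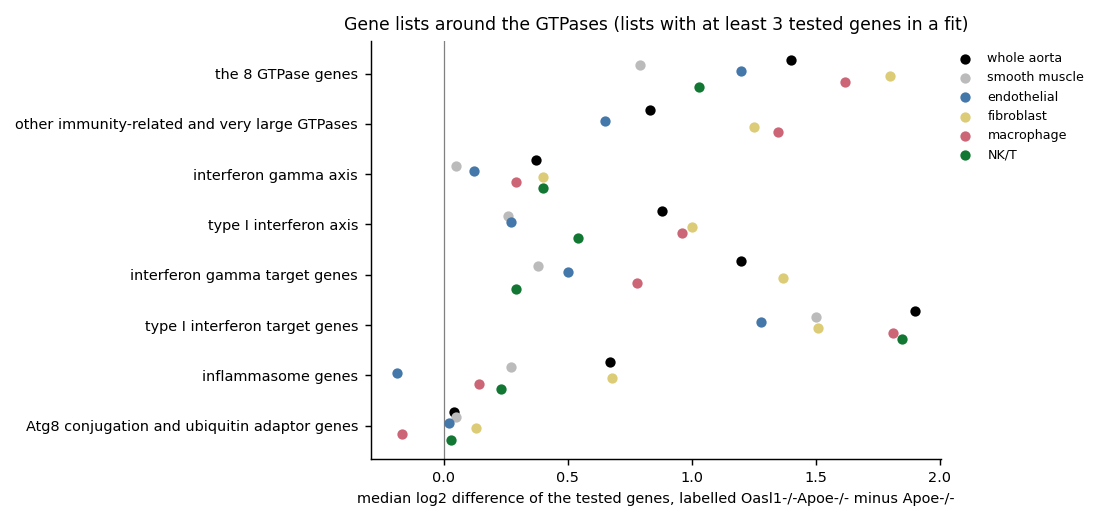
Points give the median log2 difference (labelled Oasl1-/-Apoe-/- minus Apoe-/-) of the tested genes of each list, by cell type, for lists with at least 3 tested genes. In macrophages the medians were 1.62 for the 7 GTPase genes tested, 1.81 for the type I interferon targets and 0.78 for the interferon gamma targets, with no test between lists, and the medians of the Atg8 list lay from -0.17 to 0.13.

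Blood and other cell types also left traces that differed between the groups. The summed level of the 5 erythroid markers, mainly haemoglobin, was 1.57 to 3.29 CP10K over the 5 gated types in Apoe-/- libraries and 0.399 to 1.16 in labelled ones. In endothelial cells the summed level of the 8 macrophage markers was 0.387 to 0.722 CP10K against 0.9 to 1.54, and in macrophages that of the 8 endothelial markers was 0.198 to 0.324 against 0.197 to 0.237, with none of the markers at 0. The part of these traces in the GTPase differences was not tested.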

How the data were processed

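The authors sequenced 5 droplet 3′ libraries, mapped reads to mm10 with Cell Ranger 3.1.0, filtered cells with Seurat 4.0.3, removed doublets and deposited natural log values of 1 plus UMIs per 10000 per cell. Undoing the log gave sums of 10000 (largest difference 0.00344) and whole UMIs for 100% of values within 0.01. Cell types were gated by fixed markers (score at least 0.3, margin 0.1, set after the data were seen, 90.4% of 18260 cells); 5 types had at least 20 cells in each library. Clusters (Leiden, resolution 1, 12 components, 2000 genes without interferon genes) numbered 23, 21 named. The cell types are rebuilt, and differences from the study may come from that.

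Per library and type, log2(mean CP10K + 0.05) was tested with limma 3.58.1 (trend) for genes with a mean of at least 0.05 CP10K, with Benjamini-Hochberg adjustment over all genes and a threshold of 0.05. This scale understates changes of low genes. Shares were compared by exact permutation, smallest p 0.1. The scripts were tested on simulated data. The text names the 8 members, of each of 9 lists up to 3 genes past the threshold in a direction, and the genes most alike. Members and lists were chosen with earlier results of these data known. Alternatives were other pseudocounts, filters, means of ln values, limma-voom on summed UMIs, a replicate block, a stricter gate, clusters, thinned cells, equal cell type shares and each library left out. Single genes of the lists that are withheld here are not reported.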

Additional observations from a re-analysis of the deposited data

Results flagged for a closer look

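The group difference was larger in macrophages than in smooth muscle cells for 4 genes, by the test of the difference itself (limma): by 0.91 on the log2 scale for Gbp2, 0.62 for Gbp3, 0.79 for Gbp7 and 0.79 for Igtp. The smooth muscle levels of these genes lie near the pseudocount, and 1 gene was past the threshold with a pseudocount of 0.01 CP10K and 0 without labelled replicate 1. By the fold of the group means Gbp3 rose more in smooth muscle (4.5) than in macrophages (4.23).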

How the results depend on the processing

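Of 774 alternative values of the 8 genes, 670 kept their direction and side of the threshold, 59 lost it, 19 gained it and 26 changed direction, 19 of these in the differences between types. Of 1056 values of list genes, 924 kept both and 132 lost the threshold. Counts of the 8 genes past the threshold moved by over 1.5 times as follows, and the causes were not tested. Clusters gave 2 in smooth muscle. Thinned cells gave 5 in endothelial cells, 0 in fibroblasts and 0 in NK/T cells, and thinning also left fewer UMIs. Limma-voom gave 1 in fibroblasts and 0 in NK/T cells. A pseudocount of 0.01 gave 0 in NK/T cells, 1 in macrophages minus smooth muscle and 1 in macrophages minus endothelial cells, and one of 0.5 gave 5 in endothelial minus smooth muscle, as did means of ln values, which gave 0 in NK/T cells. Leaving out each library in turn (a lone Apoe-/- library is then assumed to vary like the rest) gave 5 to 8 in endothelial cells, 1 to 4 in fibroblasts, 0 to 2 in NK/T cells, 0 to 3 in macrophages minus smooth muscle and 0 to 1 in the monocyte-like and in the dendritic-like cluster. Of the list counts it moved by over 1.5 times, the interferon gamma axis came to 0 to 1 in endothelial cells and 1 to 2 in NK/T cells, its targets to 3 to 5 in smooth muscle, 2 to 4 in endothelial cells and 0 to 3 in fibroblasts, the type I axis to 1 to 2 in endothelial cells and NK/T cells and 0 to 2 in fibroblasts, the type I targets to 5 to 7 in endothelial cells, 0 to 4 in fibroblasts and 1 to 5 in NK/T cells, the inflammasome list to 0 to 1 in smooth muscle and 1 to 2 in macrophages, and the Atg8 list to 1 to 4 in the whole arch. List counts of 0 rose to at most 1.

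Directions reversed for Gbp2 in fibroblasts when thinned (-0.12), for Gbp3 in NK/T cells with libraries left out (-1.32 to 0.28), and for Igtp in NK/T cells with the stricter gate (-0.17) and with libraries left out (-0.12 to 0.14). In macrophages minus smooth muscle, Iigp1 ranged from -0.24 to 1.19 with libraries left out. In macrophages minus endothelial cells, a pseudocount of 0.5 gave -0.22 for Gbp3, -0.20 for Gbp4, -0.31 for Gbp7 and -0.60 for Iigp1, and means of ln values gave -0.09, -0.06, -0.10 and -0.14. A pseudocount of 0.01 gave 0.14 for Igtp there and -0.07 for Gbp3 in endothelial minus smooth muscle. With libraries left out, macrophages minus endothelial cells ranged from -0.24 to 0.45 for Gbp3, -0.04 to 0.57 for Gbp7, -0.35 to 0.27 for Igtp and -0.53 to 0.77 for Iigp1.

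Pairing of the libraries by replicate number was not seen in the whole arch, where deviations of same-numbered libraries from their group means correlated at 0.0148 and 0.0429. The deviations of the Apoe-/- libraries mirror each other, so these values are not independent and do not show that pairing was absent. With the replicate block, 7, 5, 8, 3, 7 and 1 genes were past the threshold in the whole arch, smooth muscle, endothelial, fibroblast, macrophage and NK/T fits, as without it, and 3 in macrophages minus smooth muscle. The block gave -0.11 for Igtp in NK/T cells and -0.12 for Gbp3 in macrophages minus endothelial cells. The fewest cells of a type in an Apoe-/- library were 52 fibroblasts and 78 NK/T cells.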

Other observations

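The neutrophil-like cluster, led by S100a9, S100a8 and Retnlg, held 116 cells. Gbp2 had 0 and 0 UMIs in its Apoe-/- libraries and 1, 5 and 2 in the labelled ones, Irgm1 0 and 0 against 1, 4 and 1, and Igtp 0 and 0 against 1, 1 and 3, all too few for a test. The B-like cluster of 122 cells had 2 Gbp7 UMIs, 1 Igtp UMI and 1 Gbp2 UMI over all 5 libraries, and no UMI of the other 5 genes.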
